A study of Mus musculus with 3 samples.

Results

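Ets1, Fli1, Erg, Kdr, Tal1, Etv2, Sox17 and Sox18 are 8 regulators of blood vessels and early blood cells. They were chosen by name, with earlier results of these data known, from the 21883 protein-coding genes of the mouse gene table. Each was examined for binding of the limb factors Tbx4 and Hoxc10 in chromatin immunoprecipitation with sequencing (ChIP-seq) of hindlimb buds. The groups were Tbx4 ChIP with a homemade antibody, Hoxc10 ChIP with an Abcam antibody and Hoxc10 ChIP with a Santa Cruz antibody, of 1 sample each. All 3 came from wild type CD1 embryos of stage e11.5. No list of the Santa Cruz sample was used here. There are no replicates, so nothing below is tested between samples, and the sources used here do not state how many embryos made up a sample. Whole buds were used, so binding in few cells and weak binding in many cells cannot be told apart, nor can binding in vessels and in mesenchyme.

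Blood vessels of the limb bud form from endothelial cells that invade the mesenchyme and remodel as the skeleton condenses. ETS factors bind DNA words with a GGAA core and act at most endothelial enhancers, often beside other classes of factors. Etv2 acts early, when endothelial and blood progenitors are specified, and Ets1, Fli1 and Erg act later and overlap in function. Tal1 is a basic helix-loop-helix factor of blood and endothelial progenitors, and Sox17 and Sox18 belong to the SoxF group of arterial and lymphatic development. Kdr is the main signalling receptor of endothelial cells for VEGF. Tbx4 is a T-box factor of the hindlimb and Hoxc10 a posterior Hox factor, and both act in limb mesenchyme.

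A site is a deposited peak summit, and it belonged to a gene when it lay inside it or between it and the next protein-coding gene on either side, at most 1 Mb away. A Hoxc10 summit with a Tbx4 summit within 200 bp is called co-bound. The score is the MACS2 value on a −log10 scale, which can be ranked only within its own list. Read depth is unknown. The name of the Hoxc10 list leaves it possible that only summits near Santa Cruz peaks were kept.

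Sites were found at 4 of the 8 genes, the same 4 for both factors. Ets1, Fli1, Erg and Sox17 had sites of Tbx4 and of Hoxc10, whereas Kdr, Tal1, Etv2 and Sox18 had no site of either. With the site between Fli1 and Ets1 counted once, there were 13 Tbx4 sites, or 0.272% of the 4780 in that list (95% Wilson interval 0.159 to 0.465%, counting error only). There were 6 Hoxc10 sites, or 0.372% of 1614 (0.17 to 0.809%). The 4 genes with sites make up 50% of the members (Wilson interval 21.5 to 78.5%, counting error only). By the same rule 17.2% of all protein-coding genes had a Tbx4 site and 6.82% a Hoxc10 site. Sites of both factors were found at 5.0% of all protein-coding genes, and co-bound pairs, present at 3 members, at 2.66%. These shares are a description and not a test of enrichment, because the members were chosen with earlier results of these data known. Their intervals were also longer, with a median of 300.5 kb against 67.2 kb for all genes, and Ets1 and Fli1 share a site.

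**Figure D1:**
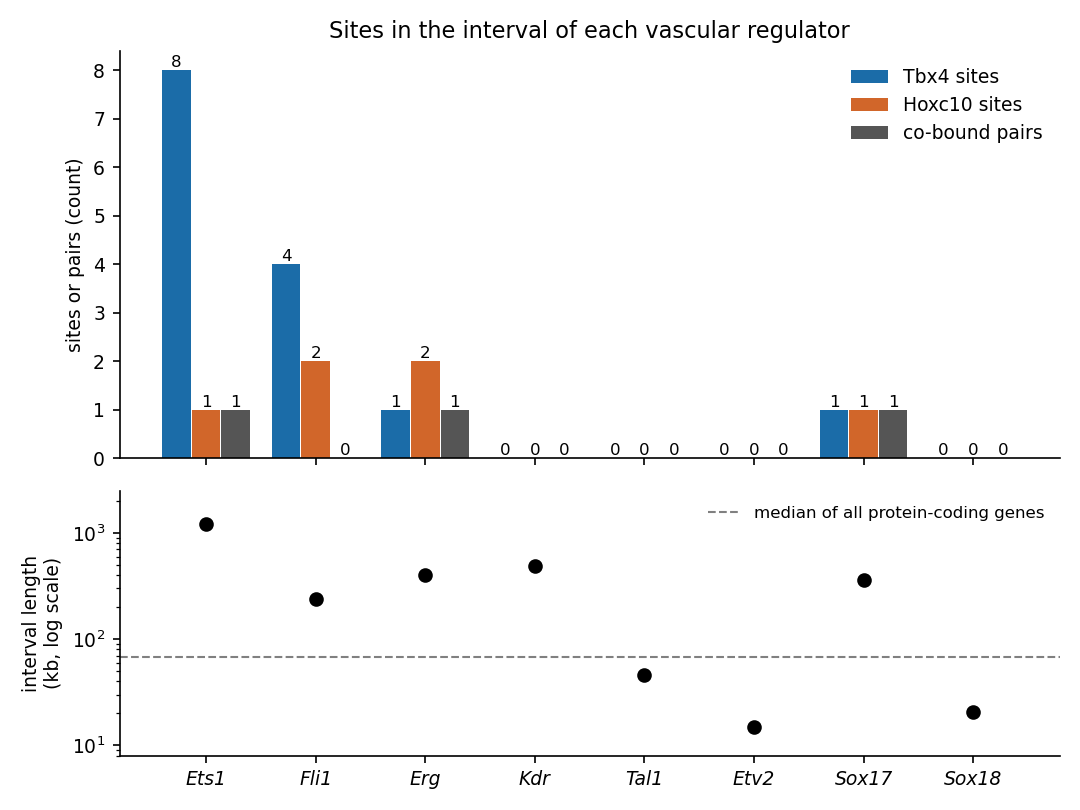
Number of Tbx4 sites, Hoxc10 sites and co-bound pairs per gene (bars, count) and length of each gene's interval (points, kb, log scale), with the median of all protein-coding genes as a dashed line at 67.2 kb. Sites stand at Ets1, Fli1, Erg and Sox17, and the shortest intervals belong to Etv2, Sox18 and Tal1.

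The intervals in which sites were counted differed in length, and over all protein-coding genes the share with a site was higher in longer length classes. Etv2 with 14.9 kb, Sox18 with 20.7 kb and Tal1 with 45.5 kb had no site. Among all 8885 genes with intervals under 50 kb, 6.79% had a Tbx4 site and 0.81% a Hoxc10 site. Fli1 with 237 kb had 4 Tbx4 and 2 Hoxc10 sites, Sox17 with 364 kb had 1 and 1, and Erg with 402 kb had 1 and 2. Kdr with 484 kb had no site, so among these 4 members the counts did not rise with length. Among the 2716 genes between 200 and 500 kb the shares were 34.9% and 16.0%, and 6.41% had a co-bound pair. Ets1 had the longest interval of the members, 1214 kb, and 97.8% of all genes had a shorter one. Of the 905 genes with at least 1000 kb, 56.1% had a Tbx4 site, 38.1% a Hoxc10 site and 18.5% a co-bound pair. In this class 4.86% had 8 or more Tbx4 sites, as Ets1 did. The part of length in the members' counts was not tested.

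Fli1 and Ets1 lie next to each other on chromosome 9 and held most of the sites. Their joint interval reached from 32399198, at the end of Kcnj1, to the limit at 33757820, short of Kirrel3, and spanned 1359 kb. It held 11 of the 13 Tbx4 sites and 3 of the 6 Hoxc10 sites, with 1 co-bound pair. Ets1 by itself had 8 Tbx4 sites and 1 Hoxc10 site, and Fli1 had 4 and 2. The Tbx4 counts of both genes were level under some other settings. With at most 100 kb on each side Ets1 had 4 and Fli1 4, and with any annotated gene ending an interval 3 and 3. Among Tbx4 sites at or above the list's median score the counts were 3 and 3. With at most 250 kb they were 5 and 4, and by the nearest gene 7 and 3. As many Tbx4 sites as at Ets1, or more, were found at 0.356% of all protein-coding genes, and as many as at Fli1 at 1.76%. Per length the order was the other way round, with 1.69 Tbx4 sites in 100 kb at Fli1 and 0.659 at Ets1.

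The highest-scoring Tbx4 site of the locus lay inside Ets1, at 32720505, with a score of 11.3, above 86.7% of the Tbx4 list. The Hoxc10 summit of Ets1 was 9 bp away, at 32720496, and scored 3.26, above 5.14% of the Hoxc10 list. The co-bound place of Ets1 thus ranked high for Tbx4 and low for Hoxc10. It lay 84.3 kb from the lower end of the gene (32636241) and 37.3 kb from the upper end (32757820). Exons and introns were not told apart here.

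Inside Ets1 were 2 more Tbx4 sites. The site at 32672376 scored 8.12, above 78.2% of the list, and that at 32741782 scored 1.63, near the bottom of the list. Their nearest Hoxc10 summit was the one inside the gene, at 48.1 and 21.3 kb.

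Beyond the upper end of Ets1 lay 4 Tbx4 sites in the gene-poor stretch towards Kirrel3, with no Hoxc10 site. Their distances from Ets1 were 229, 324, 347 and 834 kb, and their scores were 3.67, 2.26, 2.94 and 1.63. The nearest of them equalled the list's median score of 3.67, and the others were below it. The site at 33081386, the second in distance, lay inside the long non-coding RNA gene Gm27166. The site at 834 kb was also within 1 Mb of Kirrel3 and counts for that gene too. The next Tbx4 summit, beyond the limit at 1272 kb from Ets1, scored 15.93.

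**Figure D2:**
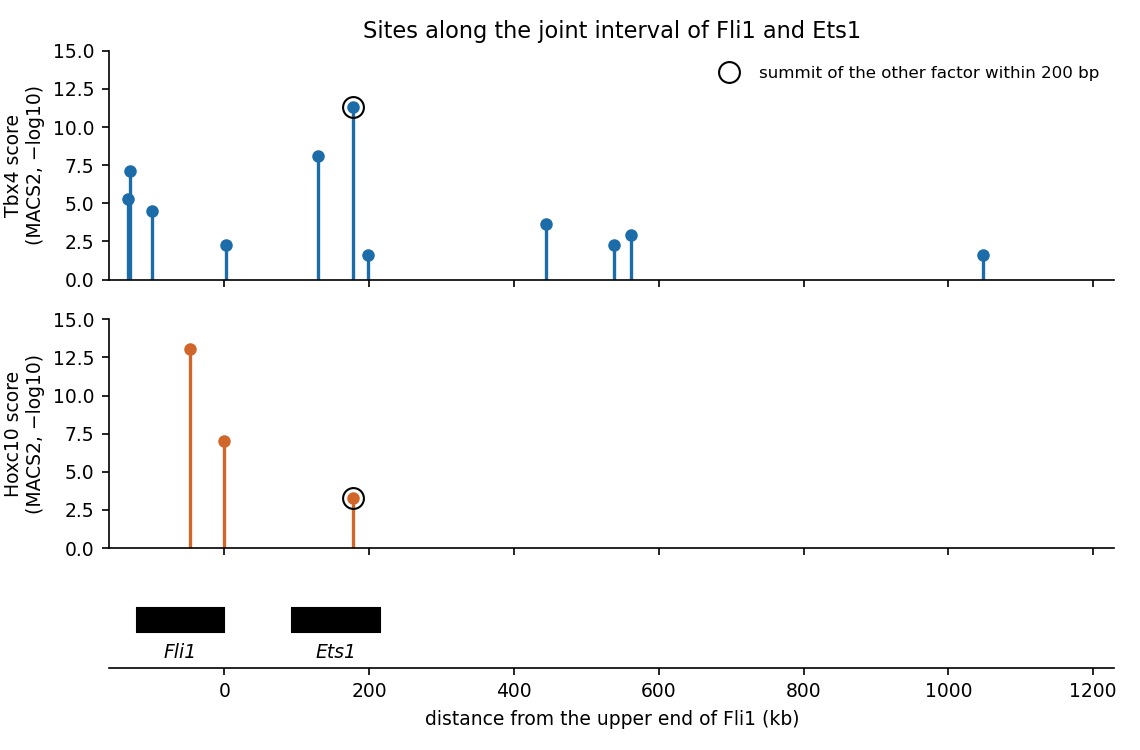
Tbx4 (upper panel) and Hoxc10 (middle panel) sites of the Fli1 and Ets1 interval, each a stem whose height is the MACS2 score (−log10), against the distance from the upper end of Fli1 in kb, with the genes as boxes below. The circled pair inside Ets1 is the only co-bound one, and the 4 Tbx4 sites beyond Ets1 score 3.67 or less.

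At Fli1 the factors had sites in different places. The Hoxc10 site at 32495352 lay inside the gene, 48.1 kb from its upper end, and scored 13.04, above 75.03% of the Hoxc10 list. It had the highest score of the 6 Hoxc10 sites at the members, with its nearest Tbx4 summit 50.1 kb away. The other Hoxc10 site, at 32543233 with a score of 7.02, lay inside the gene 199 bp from its upper end at 32543432. Across that end, 2049 bp outside the gene, lay the Tbx4 site at 32545481 that Fli1 shares with Ets1, with a score of 2.26. These summits were 2248 bp apart, which is the nearest approach of the factors at Fli1.

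The 3 other Tbx4 sites of Fli1 were near its lower end. The site inside the gene, at 32443927, scored 4.46. Those outside, at 32413308 and 32409691, were 8.90 and 12.5 kb below the gene and scored 7.14 and 5.3. Both lay between Kcnj1 and Fli1 and count for Kcnj1 too. The outermost was nearer to Kcnj1 than to Fli1 and lay inside the long non-coding RNA gene Gm31755. All 3 scored above the list's median, and their nearest Hoxc10 summit was 51.4 to 85.7 kb away.

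MACS2 numbers its peaks by position, so gaps between the numbers show where the list left called peaks out. From the first Tbx4 site below Fli1 to the last inside Ets1, over 332 kb, the numbers ran from 39449 to 39455 without a gap, and all 7 numbered peaks were in the list. In the whole Tbx4 list, 10.6% of the numbers up to 45103 were present, and 30 runs of 7 or more held 5.21% of its sites. Above Ets1 there were gaps, and 19 of the 30 numbers from 39449 to the last site of the interval, 39478, were missing. The 3 Hoxc10 sites of the locus were numbered 3526 to 3528 without a gap. Runs of 3 or more held 57.2% of the sites of that list.

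Erg, the close relative of Fli1, stands next to Ets2 on chromosome 16, much as Fli1 stands next to Ets1. The pairs are known to descend from a common ancestral pair. Erg had 1 Tbx4 site and 2 Hoxc10 sites, all outside the gene, in the 116 kb between it and Ets2. The Tbx4 site at 95638160 scored 12.42, the highest of the 13, above 88.7% of the list. A Hoxc10 summit at 95638035 was 125 bp away and scored 3.26. The other Hoxc10 site, at 95632957, was 5.20 kb from the Tbx4 summit and scored 9.91, above 61.2% of its list. At Erg as at Ets1, the pair thus ranked high for Tbx4 and low for Hoxc10, where a score of 3.26 exceeds 5.14% of the list.

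These 3 sites lay 46.4 to 51.6 kb above Erg and 64.2 to 69.5 kb below Ets2, a broadly expressed ETS factor. They count for both genes. Ets2 had 3 Tbx4 and 3 Hoxc10 sites in all, so 1 and 2 of them are those of Erg. By length Erg had 0.249 Tbx4 and 0.497 Hoxc10 sites in 100 kb. In contrast to Ets1 and Fli1, no site of either factor was inside the gene, although Erg is the longest member with 227 kb.

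The RefSeq promoter table (GRCm38.p6, the build of mm10) matched 4 of the 8 members, Erg, Kdr, Tal1 and Etv2, with 7 windows of 300 bases. Each window runs from 250 bases before a transcription start to 50 after it. Ets1, Fli1, Sox17 and Sox18 were not matched. Erg reads along the minus strand, so its 3 sites lay upstream of its outermost start. That start was 51.6 kb from the Tbx4 summit and 46.4 kb from the nearer Hoxc10 summit, and no summit fell in any of the 7 windows. The windows of Erg's outermost start, from which these distances are counted, and of an inner start that holds a T-box word are shown here in lower case, with that word, TCACACCT, in capitals.
Erg outermost start, chr16:95586544-95586843, minus strand: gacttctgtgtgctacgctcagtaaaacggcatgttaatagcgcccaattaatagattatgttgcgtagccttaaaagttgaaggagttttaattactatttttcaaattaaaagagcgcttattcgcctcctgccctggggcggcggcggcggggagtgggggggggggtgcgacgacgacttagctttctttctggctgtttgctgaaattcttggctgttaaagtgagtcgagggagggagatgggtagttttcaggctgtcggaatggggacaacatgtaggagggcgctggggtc
Erg inner start, chr16:95459299-95459598, minus strand: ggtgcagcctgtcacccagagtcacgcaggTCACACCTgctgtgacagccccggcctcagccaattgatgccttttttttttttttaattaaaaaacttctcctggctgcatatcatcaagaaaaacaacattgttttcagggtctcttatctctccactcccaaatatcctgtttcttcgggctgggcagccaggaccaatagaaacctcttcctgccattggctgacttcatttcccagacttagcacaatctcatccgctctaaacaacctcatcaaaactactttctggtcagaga

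The words searched, on both strands, were AGGTGT and its longer form AGGTGTGA for T-box factors, TTTATG and TTTATNG for posterior Hox factors, and GGAAG and its longer form CCGGAAG for ETS factors. A longer form or TTTATNG can overlap with its shorter partner. The inner Erg window held AGGTGTGA once, on the opposite strand, from base -220 to -213 before the start. Of all 32851 promoter windows, 1.28% held that word and 13.7% held AGGTGT. No window of Erg, Kdr, Tal1 or Etv2 held TTTATG or TTTATNG, which were present in 11.9% and 10.9% of all windows. GGAAG was found in 5 of the 7 windows and in 71.4% of all windows, and CCGGAAG in none of the 7 and in 8.86% of all.

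Sox17, a SoxF factor of arterial endothelium and of endoderm, had 1 site of each factor, and they formed a pair. The Tbx4 summit at 4572037 of chromosome 1 scored 11.3, above 86.7% of its list. The Hoxc10 summit at 4572149, 112 bp away, scored 10.67, above 65.2% of its list. It was the highest-scoring Hoxc10 summit among the 3 co-bound pairs of these genes. The pair lay 74.6 and 74.7 kb above the upper end of Sox17 (4497426), inside the long non-coding RNA gene Gm37323, on the way to Mrpl15. It counts for Mrpl15 too, although Sox17 was the nearest protein-coding gene. When non-coding genes also ended an interval, Sox17 had 0 sites.

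**Figure D3:**
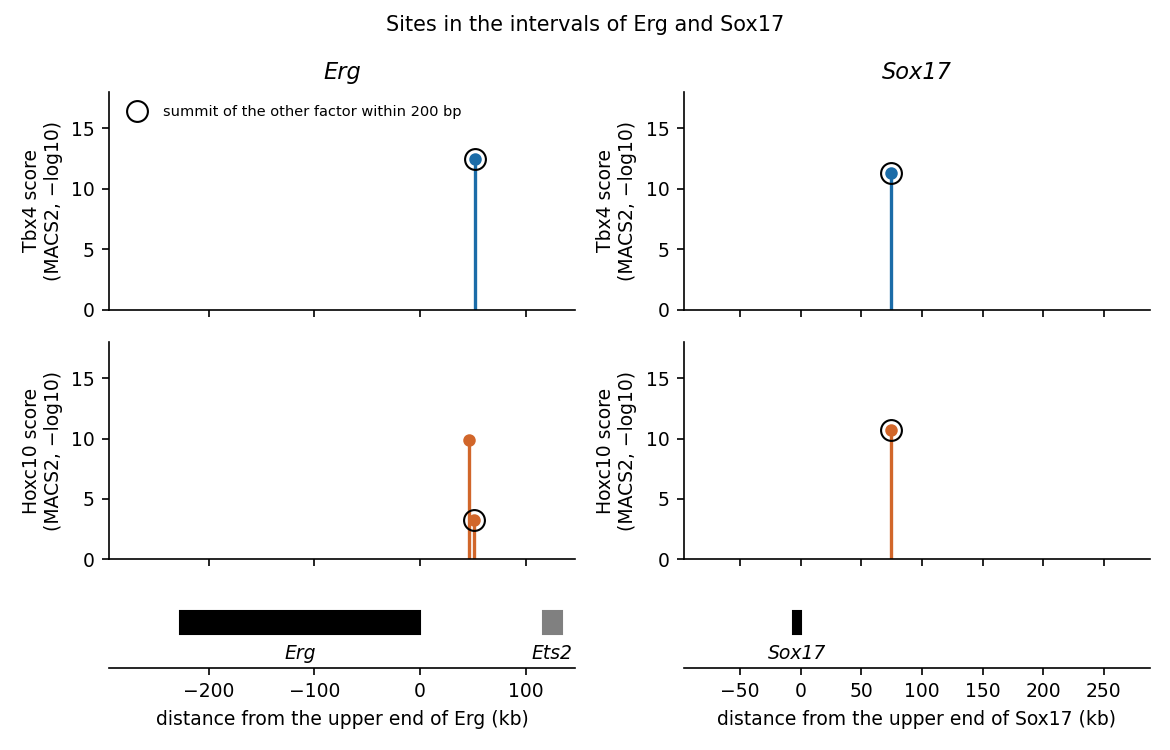
Sites in the intervals of Erg (left) and Sox17 (right), as stems whose height is the MACS2 score (−log10), against the distance from the gene's upper end in kb, with genes as boxes and the neighbour Ets2 in grey. Circles mark the co-bound pairs, with Tbx4 scores of 12.42 at Erg and 11.3 at Sox17 and Hoxc10 scores of 3.26 and 10.67.

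The 3 co-bound pairs, at Ets1, Erg and Sox17, had distances of 9, 125 and 112 bp between their summits. The nearest approach that did not count was the 2248 bp at Fli1. Co-bound were 23.1% of the Tbx4 sites at the members (3 of 13, Wilson interval 8.18 to 50.3%), against 10.9% of the whole list. For Hoxc10 the share was 50% (3 of 6, 18.8 to 81.2%), against 32.1%. The Wilson intervals of these shares include the shares of the lists, but they cover counting error only. Whether members and lists differ was not tested. The Tbx4 scores of the 3 pairs were 11.3, 12.42 and 11.3, above those of the 10 Tbx4 sites without a partner, which scored 8.12 or less. Scores of co-bound and other sites were not compared over the whole list, so this may not be particular to these genes. Within 50 bp or 100 bp, 1 pair remained, that of Ets1.

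The members' sites ran from the bottom of the lists to above their upper quartiles, and the best rank was 479 for Tbx4 and 374 for Hoxc10. The 13 Tbx4 scores ranged from 1.63 to 12.42 with a median of 4.46, and those of the whole list from 1.34 to 317.1 with a median of 3.67. Above the list's median were 7 of the 13, and 5 were at or above its upper quartile of 7.14. The 6 Hoxc10 scores ranged from 3.26 to 13.04 with a median of 8.47, and those of the whole list from 1.4 to 237.9 with a median of 7.72. Of these, 3 were above the median and 1 was above the upper quartile of 12.99. Among the sites at or above the median score of their list there remained 8 Tbx4 sites, 3 Hoxc10 sites and 1 pair. Sites tied at the median were kept, so more than 50% of each list stayed. The Tbx4 list had 2336 sites above its median and 594 at it, and the Hoxc10 list 792 and 72.

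**Figure D4:**
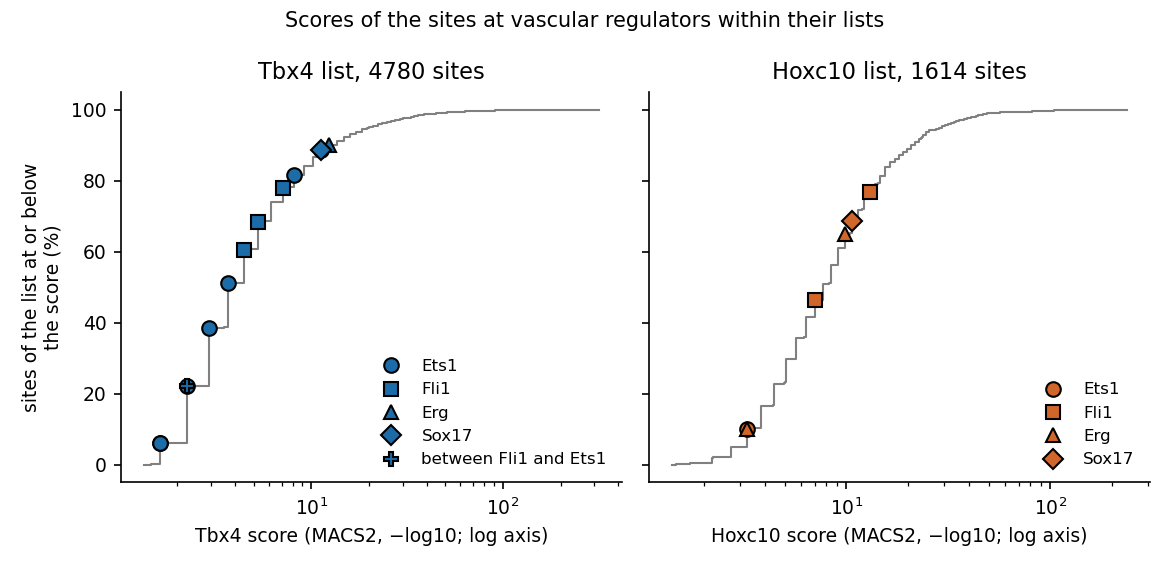
Share of each list's sites (%) at or below a given MACS2 score (−log10, log axis) as a grey curve, with the sites of the vascular regulators as symbols by gene. The highest members reach 12.42 for Tbx4 and 13.04 for Hoxc10, well below the highest scores of the lists, and sites with equal scores lie on top of each other.

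Kdr, the VEGF receptor that marks endothelial progenitors, had no site in 484 kb between Kit and Srd5a3, an interval longer than those of 90.5% of genes. Its nearest Tbx4 summit was 451 kb below it, beyond Kit, and scored 2.26. Its nearest Hoxc10 summit was 451 kb above it, 65873 bp from Nmu, and scored 14.69. The Hoxc10 summits on its sides had the consecutive peak numbers 2570 and 2571, so no numbered Hoxc10 peak between them was left out. For Tbx4, 12 numbers were missing over the 1640 kb between the flanking sites.

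Tal1, flanked by Stil and Pdzk1ip1, had its nearest sites 235 kb below it, with 4 protein-coding genes in between. Those were a Tbx4 summit of 6.19 and a Hoxc10 summit of 12.24, 33 bp apart and nearest to Foxd2. The flanking Hoxc10 numbers, 2400 and 2401, were again consecutive, and 19 Tbx4 numbers were missing between the flanking sites.

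Etv2, between Cox6b1 and Rbm42, lies in a gene-dense stretch of chromosome 7. Its nearest Tbx4 summit, with a score of 2.94, was 80.7 kb away inside Hspb6, past 8 protein-coding genes. The nearest Hoxc10 summit was 6063 kb away, inside Tshz3. Between the flanking Tbx4 sites, 4441 kb apart, 66 peak numbers were missing, and where in that stretch those peaks lay is unknown.

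Sox18, between Gm29797 and Tcea2 on chromosome 2, had its nearest Tbx4 summit 128 kb away inside Myt1, with a score of 1.63 and 4 protein-coding genes in between. The nearest Hoxc10 summit, of 6.34, was 450 kb away inside Fndc11. Kdr, Tal1, Etv2 and Sox18 had 0 sites in every alternative tried for the interval and the score, but most alternatives could not have added a site. They only shortened intervals or lists, or assigned sites to the nearest gene. Leaving out genes named Gm or Rik as ends could add sites. Among these genes it applied to Sox18 alone, which is next to Gm29797. A count of 0 says only that no deposited summit lay there.

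Other genes of the same systems were listed for context. Of 22 other ETS factors, 4 had Tbx4 sites, or 18.2%, and 2 had Hoxc10 sites, or 9.09%. These shares are close to the 17.2% and 6.82% of all protein-coding genes. Ets2 led with 3 and 3 sites, 3 of them shared with Erg. Etv1, an ETS factor of the group that responds to FGF signals, had 1 and 2, and Elk3, a partner of serum response factor, had 1 and 0. The repressor Etv6 and the blood factor Spi1 were among the 18 with no site.

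Among 18 other endothelial and blood regulators, 6 had Tbx4 sites and 4 had Hoxc10 sites (33.3% and 22.2%). The shares of all protein-coding genes, whose median interval was shorter, were 17.2% and 6.82%. Runx1, which drives the emergence of blood stem cells and also acts in the skeleton, had 7 and 3. Nr2f2, a nuclear receptor of venous endothelium and of mesenchyme, had 5 and 4, and Foxc1, of vascular and mesenchymal development, 2 and 1. The intervals of Runx1, Nr2f2 and Foxc1 were 1042, 1157 and 188 kb long. The blood factor Lmo2 had 1 and 0. No site lay at 11 of the 18, among them the SoxF gene Sox7, the blood factors Gata1, Gata2 and Lyl1, and Mef2c, Klf4, Foxc2 and Epas1.

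Of 27 vascular ligands and receptors, 10 had Tbx4 sites and 7 Hoxc10 sites (37.04% and 25.9%). All protein-coding genes, with a shorter median interval, had shares of 17.2% and 6.82%. The semaphorin and VEGF co-receptors Nrp1 and Nrp2 had 6 and 2, and 4 and 4. Cxcl12, a chemokine made by mesenchyme, had 1 Tbx4 site and 6 Hoxc10 sites. The intervals of Nrp1, Nrp2 and Cxcl12 were 1073, 406 and 1124 kb long. Vegfa, the ligand of Kdr, had 2 and 1, with its best Tbx4 score at 35.95. The ephrin receptor Ephb4 had 2 and 0, and the receptor Notch1 1 and 0. No site lay at 17 of the 27, both ligands (Vegfb, Vegfc, Vegfd, Dll4) and receptors (Flt1, Flt4, Tek).

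Of 15 endothelial marker genes, 3 had a Tbx4 site (20%) and none had a Hoxc10 site. They were the junction cadherin Cdh5 with 3 sites, Egfl7 with 1 and Emcn with 1. The interval of Cdh5 was 1069 kb long, between Cdh11 and Bean1, and its sites may count for these neighbours too. The site of Egfl7 lies between it and Notch1 and counts for both. Pecam1, Cldn5, Vwf, Cd34 and 8 others had no site. The median count per gene was 0 for both factors in each of the 4 lists, as over all protein-coding genes, and 0.5 for the 8 members. Median interval lengths were 300.5 kb for the 8 members, 89.2 kb for the markers to 153 kb for the other regulators, and 67.2 kb for all genes.

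**Figure D5:**
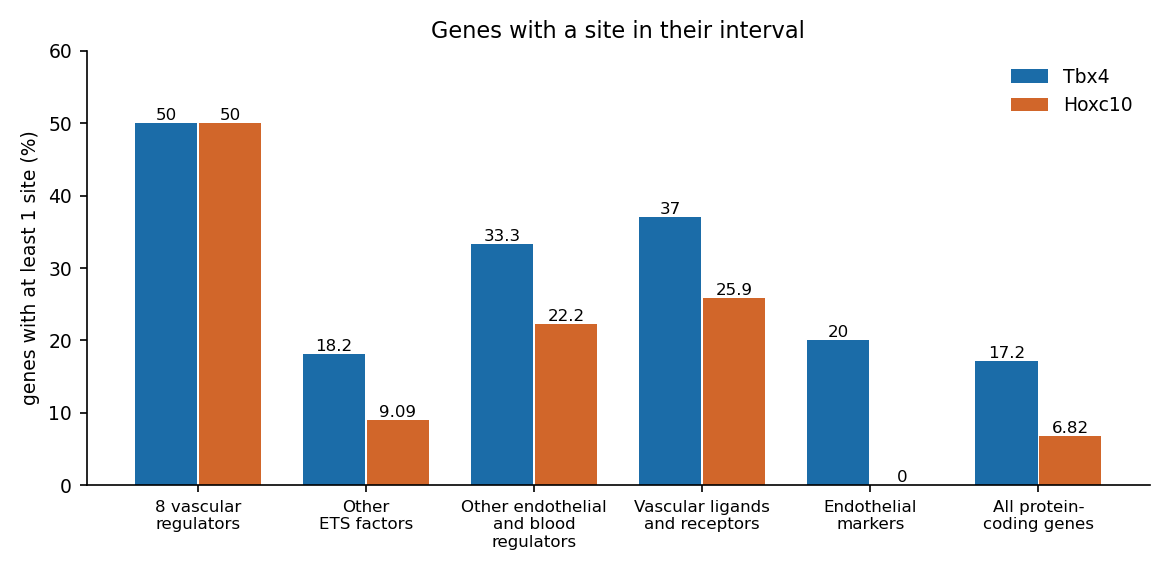
Share of genes (%) with at least 1 Tbx4 or Hoxc10 site in their interval, for the 8 vascular regulators, the 4 context lists and all protein-coding genes. The members stand at 50% for both factors and all genes at 17.2 and 6.82%, with intervals of different length behind the bars.

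Some unrelated genes had the same counts as Ets1 and Fli1. The 8 Tbx4 sites, 1 Hoxc10 site and 1 pair of Ets1 recurred at 3 other protein-coding genes, Cd83, Slc39a11 and Slc30a10, with intervals of 1060, 862 and 659 kb. The 4, 2 and 0 of Fli1 recurred at 9 others, and the closest in interval length were Cpn2 with 202 kb, Ror1 with 492 kb and Cops8 with 551 kb. Likeness was measured on 3 counts from 2 samples.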

How the data were processed

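ChIP-seq peak summits of Tbx4 and of Hoxc10 (Abcam) in hindlimb buds were used, 1 list per sample. Reads were processed with Bowtie2 2.2.6, MACS2 2.1.1.20160309 and HOMER on mm10, per the submitters' processing notes. The score beside each summit is the −log10 value that the authors deposited, and the sources used here do not state whether a p or a q value lies behind it, how the summits were selected, which control was used or whether samples were pooled. The name of the Hoxc10 list may mean that it keeps only summits near Santa Cruz peaks.

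Genes came from a RefSeq table of GRCm38.p6 without strand. Positions are 1-based. A gene overlapping an end of another gene closed that side. All lists were fixed, and the members chosen, with earlier results of these data known. The length classes and the use of peak numbers were chosen after the values were seen. Named are the 8 members, their flanking genes, their sites, the nearest genes of sites outside, the 3 context genes with most sites per list and the 3 genes most alike in counts. A few further context genes were named after their values were seen. Shares have 95% Wilson intervals, which cover counting error only (Python 3.11.15, scipy 1.17.1). The interval rule was checked on invented genes against a direct count. Alternatives were other limits, closing genes, distances and scores, and the nearest gene.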

Additional observations from a re-analysis of the deposited data

How the results depend on the processing

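The 13 Tbx4 sites of the members became 7 when any annotated gene closed an interval. They became 8 among the sites at or above their list's median score, ties included. In those higher-scoring sites the 6 Hoxc10 sites became 3 and the 3 co-bound pairs 1, and pairs within 50 bp or 100 bp numbered 1 and 1. For Ets1 and Fli1 the 11 Tbx4 sites became 7 with at most 100 kb on each side and 6 when any annotated gene closed an interval. Among sites at or above the median score they became 6, the 3 Hoxc10 sites of these genes became 1 and their 1 pair became 0. Ets1 by itself, with 8 Tbx4 sites, had 4 with at most 100 kb, 5 with at most 250 kb, 7 with the nearest gene and 3 in both other settings. Members with a Tbx4 site numbered 4 in each alternative except 3 when any annotated gene closed an interval. Members with a Hoxc10 site numbered 4, except 3 in that alternative and 3 among sites at or above the median score. Leaving out genes named Gm or Rik as ends of an interval, an alternative chosen after seeing the data, moved no count. Among the members it could apply only to Sox18, next to Gm29797. No paired analysis was possible because each group has 1 sample. Depth is unknown, so a weak site cannot be told from a missing one.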
